A study of Mus musculus with 20 samples.

Results

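Heme is made by a chain of enzymes that starts and ends in the mitochondrion, and 8 genes of this chain were examined here: Alas2, Alas1, Alad, Uros, Urod, Cpox, Ppox and Fech. They were chosen by gene symbol, with earlier results of these data known. Every probe set that the platform annotation assigns to exactly 1 of these symbols was taken. This gave 19 probe sets among 45037 that are not array controls. Of them, 18 passed the filter on dim probe sets, out of 30153 that passed in all.

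The arrays measured RNA recovered with iron regulatory protein 2 (IRP2), an RNA-binding protein that holds mRNAs carrying an iron-responsive element (IRE), from C57BL6/J mice of both sexes. For each of 5 tissues, 50 µg of pooled total RNA was mixed with His-tagged IRP2 purified from E. coli. An antibody against the tag recovered the complexes, and a parallel control reaction contained the antibody and the RNA but no IRP2. Each tissue had 2 arrays of the IRP2 reaction and 2 of the control reaction, which makes 10 groups on 20 Affymetrix Mouse Genome 430 2.0 arrays. Duodenum, liver and spleen came from 4 mice each, kept for 21 days from weaning on a diet with under 10 mg iron per kg. Bone marrow and brain came from 6 mice each, 8 to 10 weeks old, on a diet of normal iron content. Between these sets of tissues, the tissue, the diet and the age differ together and cannot be told apart. The reaction took place in a tube with added bacterial protein, so a ratio describes what this protein recovered from extracted RNA and not the binding of the animals' own IRP2.

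Heme synthesis begins when 5-aminolevulinate synthase joins glycine and succinyl-CoA. Erythroid cells, which make most of the body's heme for hemoglobin, use the isoform encoded by Alas2, and other cells use the housekeeping isoform encoded by Alas1. The Alas2 mRNA carries an IRE in its 5′ untranslated region, through which iron regulatory proteins repress its translation when iron is scarce, while no IRE of that kind is known in the Alas1 mRNA.

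The tissue labels were checked on marker genes in the control arrays. Markers of duodenal epithelium, liver, spleen lymphocytes, bone marrow myeloid cells and brain each had their highest median in the tissue of that name. Pancreatic acinar markers also had a median log2 value of 11.81 in the duodenum controls and 8.69 in the spleen controls. Bone marrow control replicate 1 stood apart, with a mean rank correlation of 0.908 with the spleen arrays where the 3 remaining bone marrow arrays had 0.824 to 0.825. The array medians lay between 5.39 and 5.71 on the log2 scale. IRP2 and control arrays were compared within tissues, and control levels are set side by side across tissues as deposited, with quantile normalization as an alternative. Whether the 2 replicates of a group came from separate pools is not stated, so the p-values measure the spread between these arrays, which may be technical.

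Alas2 mRNA was recovered with IRP2 at 4.2 to 4.97 times its control level in liver, spleen and brain. The other 7 genes of heme synthesis showed no difference that passed the test in any tissue. Alas2 was measured by a single probe set, 1451675_a_at, whose suffix marks probes shared by several transcripts of the same gene. It lies on the X chromosome, and part of its promoter is printed because its level in the controls differed between tissues together with erythroid genes. Capitals mark the reverse complement of AGATAA, a form of the sequence bound by GATA factors such as the erythroid factor Gata1, at chrX:150547277-150547396 on the plus strand of GRCm38.p6, from RefSeq.
Alas2 promoter: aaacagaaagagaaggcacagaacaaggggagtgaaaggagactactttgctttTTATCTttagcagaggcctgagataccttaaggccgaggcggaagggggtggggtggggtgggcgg

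The match starts at base -86 from the transcription start. Windows of 300 bases, 250 before and 50 after the start, were searched on both strands for AGATAA, and 11.2% of 32851 windows held it. RefSeq windows were given for 7 of the 8 genes, 10 windows in all, and the other match among them was in Cpox, at base 5 after its start. A match is a stretch of letters and not a binding site.

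In liver, the Alas2 log2 values were 7.64 and 7.33 in the controls and 9.87 and 9.37 with IRP2. Both IRP2 arrays lay above both controls by a wide margin. The log2 ratio was 2.13 ± 0.26 (SE, n = 2 arrays per group), a 4.39-fold difference, with an adjusted p of 0.00343 in limma after Benjamini-Hochberg adjustment over all tested probe sets. The SE comes from 1 spread per probe set shared by all 10 groups, so it is equal in the 5 tissues. Brain gave the lowest control values of the 5 tissues, 6.38 and 6.14, against 8.80 and 8.35 with IRP2. The groups were again far apart, with a log2 ratio of 2.31 ± 0.26, a 4.97-fold difference (limma, Benjamini-Hochberg adjusted p = 0.00162). In spleen the control values were already high, 11.30 and 11.33, and the IRP2 values were 13.50 and 13.27. The log2 ratio was 2.07 ± 0.26, a 4.2-fold difference (limma, Benjamini-Hochberg adjusted p = 0.00239). In the liver, the call was lost without IRP2 replicate 1 (ratio 1.89, adjusted p = 0.101 in limma) or control replicate 2 (1.98, adjusted p = 0.139). In the spleen it was lost without IRP2 replicate 1 (1.95, adjusted p = 0.0914 in limma), control replicate 1 (2.06, adjusted p = 0.0681) or control replicate 2 (2.08, adjusted p = 0.0642). In the brain it was lost when arrays were weighted by their quality (2.31, adjusted p = 0.386 in limma).

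In duodenum the Alas2 values were 7.16 and 6.75 in the controls and 7.14 and 7.07 with IRP2. The groups overlapped, and the pairs of arrays with the same replicate number gave ratios of -0.02 and 0.32. The log2 ratio was 0.15 ± 0.26 (SE, n = 2 arrays per group), with an adjusted p of 1.0 in limma after Benjamini-Hochberg adjustment. Without control replicate 2 it was -0.05. Bone marrow had control values of 11.39 and 10.83 and IRP2 values of 11.91 and 12.19. Both IRP2 arrays lay above both controls, but the pairs differed, with ratios of 0.52 and 1.36. The log2 ratio was 0.94 ± 0.26, a 1.91-fold difference that did not pass the test (limma, Benjamini-Hochberg adjusted p = 0.633). With the replicate number as a block the same ratio passed, at an adjusted p of 0.0489 in limma. Both fits share 1 spread per probe set over the tissues, so neither p rests on the spread of the bone marrow arrays alone. Leaving out 1 array moved the ratio between 0.66, without bone marrow control replicate 2 (adjusted p = 0.185 in limma), and 1.21, without control replicate 1 (adjusted p = 0.636 in limma).

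**Figure D1:**
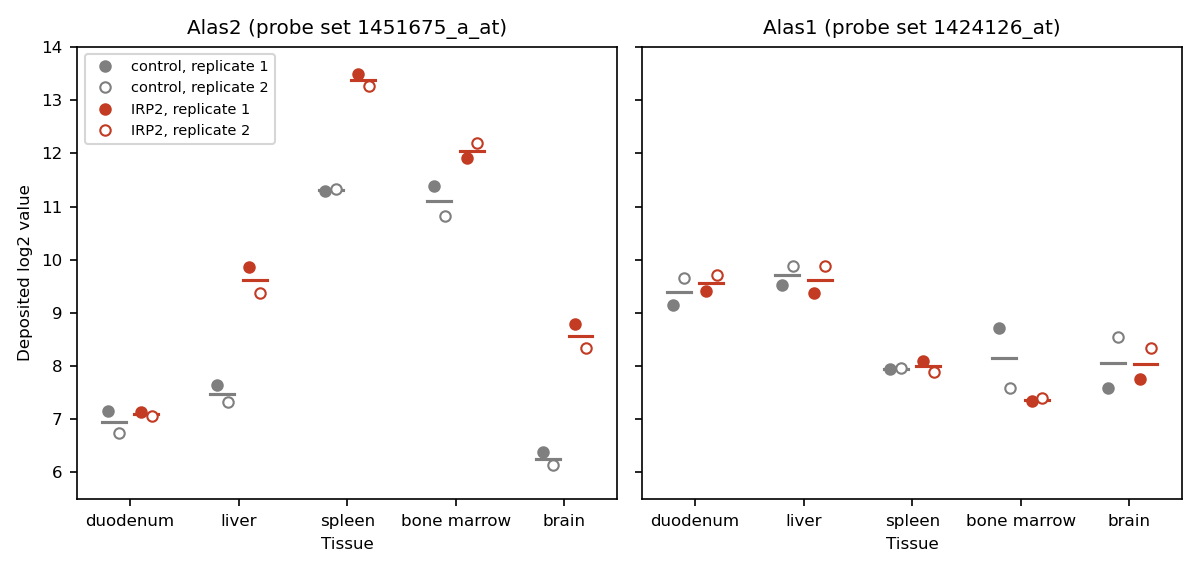
Deposited log2 values (vertical axis) of Alas2 and of the brighter Alas1 probe set on each array, by tissue (horizontal axis), with control reactions in grey, IRP2 reactions in red, and horizontal lines for group means. The Alas2 IRP2 arrays lie above their controls in liver, spleen, bone marrow and brain, by a mean log2 ratio between 0.94 and 2.31, and overlap them in duodenum, while the Alas1 arrays of both reactions overlap outside bone marrow, where both IRP2 arrays are lower.

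Averaged over the 5 tissues, the Alas2 log2 ratio was 1.52 ± 0.11 (SE), a 2.87-fold difference, and the IRP2 value was higher in 9 of 10 replicate pairs. The adjusted p was 1.95e-06 in limma after Benjamini-Hochberg adjustment. It ranked 15 from the highest among the 30153 tested probe sets. Within tissues, Alas2 stood at rank 9 in liver, 8 in brain, 12 in spleen, 57 in bone marrow and 8248 in duodenum. Of the 18 tested probe sets of heme synthesis, Alas2 was the only 1 called higher on this mean, where 0.365% of all tested probe sets were called higher. It was likewise the 1 called in liver (0.0332% of all tested probe sets), in spleen (0.063%) and in brain (0.0597%). None of the 18 was called in duodenum, where 0.073% of all were and where 0 of the 18 had an unadjusted p under 0.05. None was called in bone marrow (0.00995% of all), where Alas2 at 0.0023 and the brighter Alad probe set at 0.0456 had an unadjusted p under 0.05 in limma without the block. With the replicate block, Alas2 alone of the 18 was called in bone marrow, where 0.378% of all tested probe sets were.

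Whether the Alas2 ratio differed between tissues depended on the block. The moderated F test of equal ratios in the 5 tissues gave an adjusted p of 0.523 in limma (unadjusted 6.94e-05), and 0 of the 18 probe sets and 0.00332% of all tested probe sets were called. With the replicate number as a block the adjusted p was 0.0328 in limma, and 0.0398% of all tested probe sets were called. The other 17 probe sets of heme synthesis had block-adjusted values of 0.786 or more in this F test. The replicate numbers marked arrays that deviated together, so the blocked value is given beside the other.

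Other mRNAs that carry an IRE give a scale for these ratios in the same reactions. Tfrc, which encodes the transferrin receptor and carries its IREs in the 3′ untranslated region, had log2 ratios of 2.78 in liver, 2.36 in brain, 1.95 in duodenum, 1.46 in spleen and 0.92 in bone marrow. Slc11a2, which encodes the iron transporter DMT1, had 2.12 in liver, 0.74 in brain, 1.79 in duodenum, 1.39 in spleen and 1.20 in bone marrow. Fth1, which encodes the ferritin heavy chain, lay between 0.61 and 1.19. In duodenum, Tfrc and Slc11a2 passed the test, at adjusted p-values of 0.0111 and 0.0182 in limma. Alas2 did not, and neither did the brightest probe sets of Fth1 at 0.80, Epas1 (the hypoxia factor HIF-2α) at 0.71 and the ferroportin gene Slc40a1 at 0.19. Another Slc40a1 probe set, 1448566_at, had 1.65 in duodenum. Counting all their tested probe sets, 3 of the 5 measured IRE genes were called higher in duodenum by limma. In bone marrow, where Alas2 had 0.94, the brightest probe sets of the listed IRE mRNAs ran from -0.72 for Epas1 to 1.20 for Slc11a2. Differences between Alas2 and these genes were not tested.

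Alas1 encodes the housekeeping isoform of 5-aminolevulinate synthase and was measured by 2 probe sets. On the brighter, 1424126_at, the duodenum values were 9.15 and 9.65 in the controls and 9.42 and 9.71 with IRP2. In liver they were 9.53 and 9.88 against 9.37 and 9.88, and in spleen 7.94 and 7.96 against 8.10 and 7.89. The reactions overlapped in all 3 tissues. Brain gave 7.58 and 8.54 in the controls and 7.75 and 8.34 with IRP2, where the replicate number separated the arrays and the reaction did not. Only in bone marrow did both IRP2 arrays, 7.34 and 7.40, lie below both controls, 8.72 and 7.58. That ratio was -0.78 with both controls (limma, Benjamini-Hochberg adjusted p = 0.77) and -0.21 without control replicate 1. The mean over tissues was -0.13 ± 0.16 (SE), and the dimmer probe set, 1455282_x_at, gave -0.04 ± 0.14. That probe set carries a suffix for probes that may also match other transcripts.

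Alad, Uros and Urod act next, in the cytosol: Alad joins 5-aminolevulinate into porphobilinogen, Uros closes the ring of uroporphyrinogen III, and Urod removes its carboxyl groups to give coproporphyrinogen. The brighter Alad probe set, 1424877_a_at, had 9.99 and 9.95 in the liver controls and 9.64 and 9.86 with IRP2. In spleen it had 10.11 and 10.42 against 10.04 and 10.12, and in duodenum 8.07 and 8.23 against 8.24 and 8.85. The IRP2 arrays were thus just below the controls in liver, mixed with them in spleen and just above them in duodenum. Its second probe set, 1457306_at, gave the opposite sign in duodenum, -0.23 against 0.39, and neither passed the test. Averaged over tissues, the ratios were -0.16 ± 0.13 and -0.15 ± 0.13 (SE). Uros on 1423482_at had 10.12 and 10.48 in the spleen controls and 10.22 and 10.40 with IRP2, and 9.46 and 9.52 against 9.43 and 9.54 in liver. These pairs of values were almost equal, and the mean ratio was -0.05 ± 0.11 (SE). The dimmer Uros probe set, 1440535_at, had its largest ratio in brain, 0.37 ± 0.28, with overlapping arrays. Urod on 1443849_x_at had 11.82 and 11.89 in the spleen controls and 11.82 and 11.78 with IRP2, and 10.33 and 10.39 against 10.11 and 10.44 in liver. Its mean ratio was -0.03 ± 0.16, and that of 1417206_at was -0.19 ± 0.15 (SE), the lowest of the 17 probe sets of the other genes.

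Cpox and Ppox oxidise coproporphyrinogen and protoporphyrinogen in the mitochondrion, and Fech, ferrochelatase, inserts the iron. Cpox on 1422492_at had 9.13 and 9.41 in the liver controls and 8.68 and 9.00 with IRP2. This was the lowest liver ratio of the 17, -0.43 ± 0.35 (SE), with both IRP2 arrays below both controls, and it did not pass the test (limma, Benjamini-Hochberg adjusted p = 1.0). The other tested Cpox probe set, 1422493_at, gave 0.07 in liver. The third Cpox probe set, 1440747_at, was the 1 probe set that failed the filter, with values between 3.11 and 5.13. Ppox on 1416618_at had 8.95 and 8.77 in the spleen controls and 8.79 and 8.74 with IRP2, and 6.69 and 6.60 against 6.65 and 6.45 in liver. Its duodenum arrays separated, 6.24 and 6.41 against 6.46 and 6.78, for a ratio of 0.30 ± 0.29 that did not pass the test. The 3 Ppox probe sets had mean ratios of -0.09, 0.03 and 0.04. Fech on 1418699_s_at had 11.70 and 11.73 in the spleen controls and 11.66 and 11.68 with IRP2, and 10.55 and 10.56 against 10.31 and 10.50 in liver. The brain values were 8.82 and 9.10 in the controls and 8.58 and 9.14 with IRP2. These values gave Fech ratios of -0.04 in spleen, -0.15 in liver and -0.10 in brain, and the mean ratios of its 4 probe sets lay between -0.18 and 0.02.

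Over the 17 tested probe sets of these 7 genes, the mean ratios ran from -0.19 to 0.04 with a median of -0.05. Over all tested probe sets the 5th and 95th percentiles of the mean ratio were -0.19 and 0.18 and the median was -0.02. In no tissue was any of the 17 called by limma, with or without the block. Without the block, an unadjusted p under 0.05 in limma occurred in 1 case, Alad in bone marrow. With it, such a p occurred for 4 of the 17 in bone marrow (Alas1, Fech and both Alad probe sets, with ratios of -0.78 to -0.38), for Cpox in liver (-0.43), for Uros in brain (0.37) and for 1 Alad probe set on the mean (-0.15). The share of all tested probe sets with such a p was not counted. The smallest block-adjusted p of the 17 in limma was 0.101 in bone marrow, 0.8 in liver and 0.426 on the mean. Tissue medians were -0.25 in bone marrow, -0.04 in brain, 0.07 in duodenum, -0.10 in liver and 0.00 in spleen, beside -0.04, -0.02, 0.04, -0.04 and -0.02 over all tested probe sets. Both IRP2 arrays lay above both controls for 2 of the 17 in duodenum, where 14.4% of all tested probe sets did so. The count was 0 in brain (4.21%), 0 in bone marrow (14.5%), 1 in liver (13.9%) and 1 in spleen (15.6%). Alas2 was above both controls in these last 4 tissues. Both IRP2 arrays lay below both controls for 6 of the 17 in liver, where 20.7% of all tested probe sets did so. That count was 2 in spleen (20.2%), 2 in bone marrow (12.1%), 1 in duodenum (8.98%) and 1 in brain (6.44%).

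**Figure D2:**
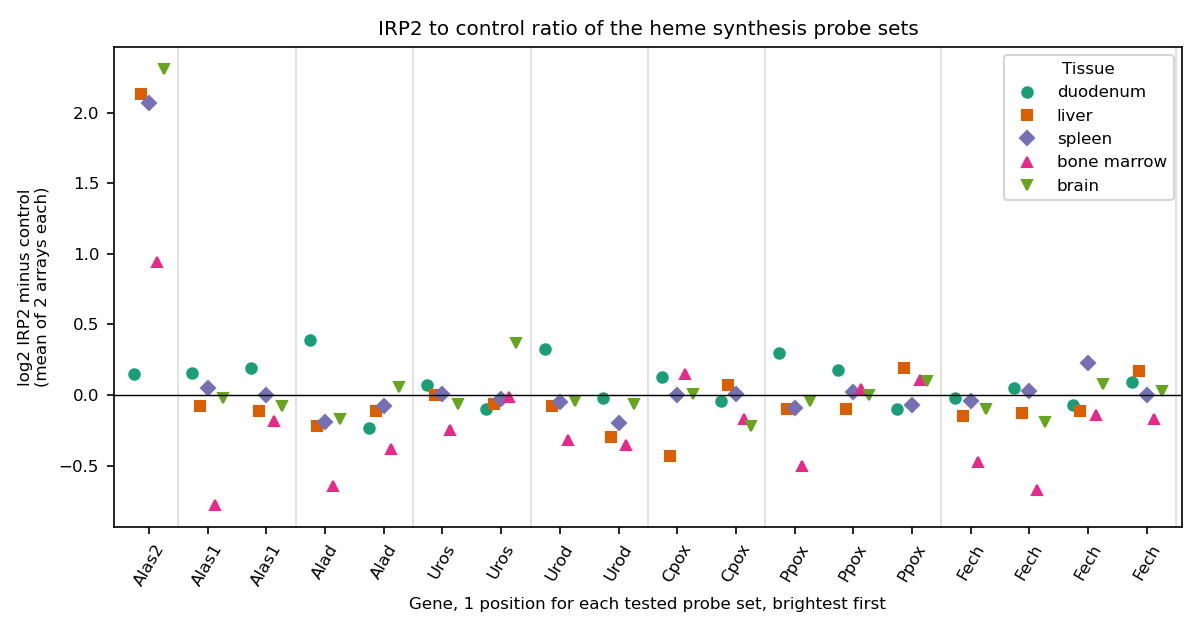
Log2 ratio of the IRP2 mean to the control mean (vertical axis) for each tested probe set of the 8 genes (horizontal axis, brightest first within a gene), with a symbol for each tissue and n = 2 arrays per group. The Alas2 symbols for liver, spleen and brain lie at 2.07 to 2.31 and that for bone marrow at 0.94, while the 17 probe sets of the other genes lie between -0.78 and 0.39.

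The difference between Alas2 and each other enzyme was tested directly. For each gene's brightest probe set, the ratio was subtracted from that of Alas2 within each tissue and averaged over the 5 tissues. The result was compared in an exact two-sided permutation test with all 7776 ways of exchanging IRP2 and control labels within tissues, of which the smallest possible p is 0.000257. Alas2 exceeded Alas1 by 1.65 ± 0.96 (SD over 5 tissues) on the log2 scale, a 3.14-fold difference, with an exact permutation p of 0.00103 and an adjusted p of 0.0015 over the 7 comparisons. By tissue the difference was 2.21 in liver, 2.33 in brain, 2.02 in spleen, 1.71 in bone marrow and -0.01 in duodenum. Against the later enzymes the mean differences ran from 1.55 for Urod and Cpox to 1.68 for Alad and Fech, or 2.92-fold to 3.22-fold. The largest adjusted exact permutation p was 0.00154, for Urod. The 4 tissues other than duodenum gave a positive difference for each of the 7 genes, from 0.79 for Cpox in bone marrow to 2.56 for Cpox in liver. In duodenum the differences lay between -0.24 and 0.17. Without bone marrow control replicate 1 the 7 differences were 1.51 to 1.67, with adjusted exact permutation p-values up to 0.00231.

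In bone marrow the ratios of all 8 genes differed between the replicate pairs. In pair 1, which contains the control array that stood apart, the other 7 genes' brightest probe sets all had ratios below 0, with a median of -1.07 and a range of -1.37 to -0.02. The Alas2 ratio in that pair was 0.52. In pair 2 the others had a median of 0.15 and a range of -0.18 to 0.32, and Alas2 had 1.36. Measured from the median of the other enzymes, Alas2 was higher by 1.59 in pair 1 and by 1.20 in pair 2, which are closer together than the raw ratios. The spread of all tested ratios was also widest in pair 1, with an SD of 0.568 against 0.214 to 0.312 in the other 9 pairs. Without bone marrow control replicate 1 the median ratio of the 7 genes moved from -0.47 to 0.03. In the 8 pairs outside duodenum, Alas2 lay above all 7 others. In duodenum it lay above 1 of 7 in pair 1 and 4 of 7 in pair 2.

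The control reactions also give the levels of these mRNAs in the RNA recovered with the antibody and without IRP2. No array measured the extracted RNA itself, so whether these levels follow it was not tested. The tissues may also have been normalized in separate runs. In bulk tissue, fewer cells of a type and less RNA per cell cannot be told apart. Alas2 was highest in spleen, 11.31 ± 0.02 (SD, n = 2), and bone marrow, 11.11 ± 0.39, whose arrays overlapped. Liver followed at 7.49 ± 0.22, then duodenum at 6.96 ± 0.29 and brain at 6.26 ± 0.17, with no overlap between neighbours. Levels here and below are those of each gene's brightest probe set unless another is named. On these, Ppox, Urod, Fech and Uros were likewise highest in spleen and bone marrow, which overlapped for each of them. Ppox had 9.08 in bone marrow and 8.86 in spleen, against 6.64 in liver, 6.43 in brain and 6.32 in duodenum, the last 3 overlapping. Urod had 11.85 in spleen, 11.53 in bone marrow and 10.36 in liver, with brain at 9.63 and duodenum at 9.41 overlapping. Fech had 11.71 in spleen, 11.55 in bone marrow and 10.56 in liver, and duodenum at 8.98 and brain at 8.96 overlapped. Uros had 10.40 in bone marrow and 10.30 in spleen, then 9.49 in liver, 9.18 in brain and 8.72 in duodenum. In Alad, spleen at 10.27, bone marrow at 10.14 and liver at 9.97 overlapped in turn, above duodenum at 8.15 and brain at 7.50. Dimmer probe sets did not all share these orders. Spleen was lowest for Ppox on 1441862_at, at 5.10, and for Fech on 1427696_at, at 5.95. It was also below duodenum for Uros on 1440535_at and Alad on 1457306_at. Ppox on 1448065_at had 8.85 in bone marrow and 7.25 in spleen, without overlap. Urod on 1417206_at and Fech on 1418698_a_at kept spleen and bone marrow highest and overlapping.

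Alas1 had another order, with liver at 9.70 and duodenum at 9.40 overlapping and above bone marrow at 8.15, brain at 8.06 and spleen at 7.95, which overlapped with each other. Cpox was highest in liver, 9.27, and the other 4 tissues, from 8.14 in spleen to 7.19 in brain, each overlapped the next. On the dimmer Cpox probe set 1422493_at, bone marrow at 7.80 and liver at 7.72 were highest and overlapped. Over the 10 control arrays, which share tissues in pairs, the Pearson correlation with Alas2 was 0.975 for Ppox, 0.927 for Urod, 0.918 for Fech, 0.896 for Uros and 0.809 for Alad. It was 0.169 for Cpox and -0.47 for Alas1. These are descriptions over 5 tissues with 2 arrays each. After quantile normalization of the arrays together, the order of the tissues was kept for 3 of the 8 genes, and in the other 5 (Alas2, Alad, Urod, Cpox and Fech) spleen and bone marrow changed places. Bone marrow and spleen then no longer overlapped for the genes highest there: Alas2 had 11.89 in bone marrow and 11.01 in spleen, Ppox 9.64 and 8.59, Urod 12.30 and 11.55, Fech 12.31 and 11.41, and Uros 11.11 and 10.01.

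**Figure D3:**
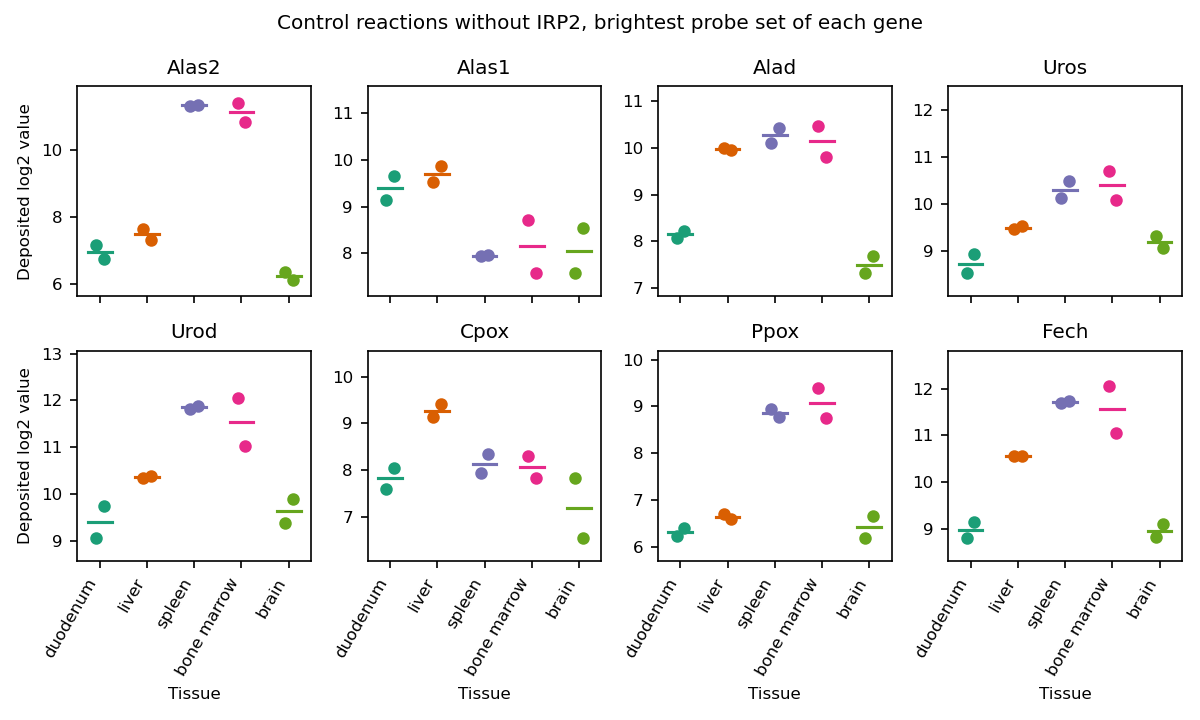
Deposited log2 values of the control arrays (vertical axis, own scale in each panel) for the brightest probe set of each gene, by tissue (horizontal axis), with points for the 2 arrays and lines for their mean. Alas2, Ppox, Urod, Fech and Uros are highest in spleen and bone marrow, at 11.31 and 11.11 for Alas2, whereas Alas1 and Cpox are highest in liver, at 9.70 and 9.27.

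Markers of erythroid cells were set beside Alas2, since this is the cell type that uses it. Of 15 listed genes, 9 had a probe set with a single symbol, among them Slc4a1 (band 3 of the red cell membrane), Epb42, Rhag, Epor, Gata1 and Klf1. Their median control value was 10.25 in bone marrow and 9.94 in spleen, against 5.41 in liver, 5.36 in duodenum and 5.17 in brain. The probe set assigned to Hba-a1 was dim in all 5 tissues and was not tested, but it is counted in the medians and sums of the 9. Its order was the reverse, with 3.51 in spleen and 3.81 in bone marrow against 4.94 in liver, 4.93 in duodenum and 4.26 in brain. The median ratio of the 9 genes was 0.14 in brain, 0.02 in spleen, -0.03 in duodenum, -0.09 in liver and -0.37 in bone marrow. None of the tested markers was called by limma, where 0.00995% to 0.073% of all tested probe sets were called higher in each tissue. In bone marrow each tested marker had a ratio below 0, from -0.61 for Epb42 to -0.08 for Epor. The replicate pairs differed in direction. In pair 1, with the control array that stood apart, each tested marker was lower with IRP2, such as Epb42 at 8.49 against 9.98. In pair 2 each was higher with IRP2, such as Epb42 at 9.57 against 9.30. The log2 of the summed values of the 9 genes ran from 13.26 to 13.63 in the spleen controls and from 13.36 to 13.49 in the spleen IRP2 arrays. In brain the ranges were 9.34 to 9.77 and 9.55 to 9.69, in liver 9.33 to 9.41 and 9.31 to 9.32, and in duodenum 8.48 to 8.79 and 8.63 to 8.65. In bone marrow they were 13.32 to 14.08 and 13.27 to 13.47. The sums are led by the brightest probe sets: in the brain and liver controls Tspan33 had 8.80 and 8.12, while Epb42 had 3.18 and 2.98 and Rhag 2.99 in both.

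**Figure D4:**
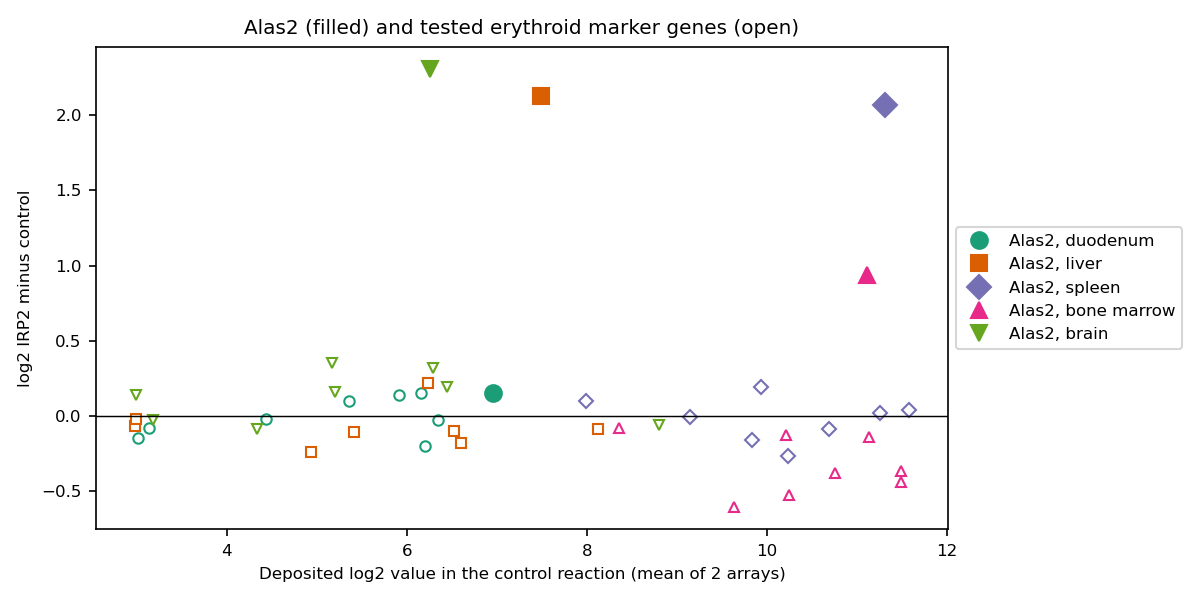
Log2 ratio of IRP2 to control (vertical axis) against the mean control log2 value (horizontal axis) for Alas2 (filled) and the tested erythroid markers (open), with symbol and colour for the tissue and n = 2 arrays per group. Alas2 has ratios of 2.07 to 2.31 in liver, spleen and brain, 0.94 in bone marrow and 0.15 in duodenum, while the markers lie between -0.61 in bone marrow and 0.35 in brain, with medians between -0.37 and 0.14; values of different probe sets on the horizontal axis are not comparable as amounts.

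Genes that feed, regulate or use the pathway were examined as a list: 30 genes, of which 28 had a tested probe set, 47 probe sets in all. They include mitochondrial carriers (Slc25a38 for glycine, Slc25a37 for iron), ABC transporters, heme exporters and importers, heme oxygenases and biliverdin reductases, and the erythroid factors Gata1, Klf1 and Nfe2. None was called higher or lower by limma on the mean or in any tissue, with or without the block. Without the block, 0.365% of all tested probe sets were called higher on the mean, and 0.00995% to 0.073% in each tissue. With the block, 0.378% were called higher in bone marrow. At such shares, the lack of a call among 47 probe sets is not a result about the list. An unadjusted p under 0.05 in limma without the block occurred in 1 of the 47 probe sets on the mean, 2 in duodenum, 3 in bone marrow and 0 in each other tissue. With the block the counts were 2 on the mean, 3 in duodenum, 9 in bone marrow, 1 in spleen and 0 in liver and brain. The share of all tested probe sets with such a p was not counted, so these counts are not a result about the list. Among those 9 in bone marrow with the block, Abcb6 had the smallest unadjusted p in limma, 0.0037, with an adjusted p of 0.0955. The largest was 0.0469, for Nrf1 on 1420978_at, with an adjusted p of 0.223 in limma. On the brightest probe sets the median of the mean ratios was -0.08, in a range of -0.18 to 0.36, beside -0.02 over all tested probe sets. In bone marrow, with the control array that stood apart, the median of these brightest probe sets was -0.27 and their highest ratio was -0.03. The dimmer probe sets there went both ways, from -0.60 for Nrf1 on 1424787_a_at to 0.46 for Slc25a39 on 1440118_at. Of the 4 genes with the smallest p on the mean, Abcg2, a transporter that exports heme and porphyrins, had a ratio of 0.36 ± 0.12 (SE) and was higher in 9 of 10 pairs. Its adjusted p was 0.872 in limma after Benjamini-Hochberg adjustment. The other 3 were Abcb6, a porphyrin transporter, at -0.18 ± 0.12, the transcriptional coactivator Ppargc1a at -0.17 ± 0.12, and the heme importer Slc48a1 on 1450409_a_at at -0.16 ± 0.10, each with an adjusted p of 1.0 in limma.

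The probe sets most like Alas2 in their 5 tissue ratios were found by the root mean square difference of the log2 ratios. The nearest was Erg, an ETS transcription factor, at 0.641, followed by Ino80d at 0.694, the chaperonin subunit Cct7 at 0.707, the ferroportin gene Slc40a1 on 1448566_at at 0.754, the cGMP-dependent kinase Prkg1 at 0.77 and the receptor chaperone Lrpap1 at 0.785. All 6 had a higher ratio in duodenum than Alas2 did, from 0.66 for Ino80d to 1.65 for Slc40a1 against 0.15. In spleen their ratios ran from 1.40 for Cct7 to 2.19 for Slc40a1, and in brain from 1.15 for Ino80d to 1.94 for Lrpap1, below the 2.31 of Alas2. The probe sets of Slc40a1 disagreed, since the brightest, 1417061_at, had a mean ratio of 0.45 and 1448566_at had 1.61. By control level, the genes most like Alas2 over the 10 control arrays were the blood cell integrin adaptor Fermt3 (Pearson r = 0.997), the red cell carbonic anhydrase Car1 (0.996), the platelet chemokine Ppbp (0.993), the hematopoietic factor Lyl1 (0.991), the cyclin Ccnd3 (0.991) and the erythroid factor Klf1 (0.991). The spleen ratios of these 6 genes lay between -0.16 and 0.04, where Alas2 had 2.07.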

How the data were processed

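RNA recovered with or without IRP2 from 5 mouse tissues was measured on 20 arrays. The deposited log2 values summarise each probe set and were made by the authors with RMA or with MAS5 in GCOS and quantile normalization, per the series' design text and the submitters' processing notes. Which of these was deposited, and the versions, are not given in the sources used here. The values lie between 1.77 and 15.0. Arrays give no read depth, and 2 arrays per group limit the precision.

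Groups and replicate numbers came from the sample titles. The source label of the control samples also names the recombinant protein, while their titles call them controls and the protocol leaves the protein out of control reactions. Of 45101 probe sets, 64 array controls were set aside. The 30153 whose value reached its own array's median on at least 2 arrays were tested. Symbols came from the platform annotation (34945 probe sets with 1 symbol, 932 with several, 9160 with none), and the gene IDs of all 19 probe sets of the 8 genes carry the same symbol in RefSeq.

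A mean for each of 10 groups was fitted with limma 3.58.1 in R 4.3.3 (10 residual degrees of freedom, prior 5.34). All groups shared 1 spread per probe set. Contrasts were IRP2 minus control in each tissue, their mean, and an F test of equal ratios. An adjusted p (Benjamini-Hochberg) under 0.05 was a call. Same-numbered arrays deviated together from their group means (correlation 0.923 in brain, 0.676 in duodenum, 0.565 in liver, 0.385 in spleen and 0.251 in bone marrow), so the numbers were treated as pairs, which the labels do not state. A blocked fit used them too (residual degrees of freedom 5, prior 7.52). The fits were also run on simulated data with independent noise on each array. Those data held no deviation shared by same-numbered arrays, so they cannot decide between the fits with and without the block.

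A gene's brightest probe set has the highest mean over the arrays. Named were all 8 genes, any called and the 4 lowest-p other heme pathway genes, IRE mRNAs for scale, and the 6 genes nearest to Alas2 by each likeness measure. Members and lists were chosen with earlier results of these data known.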

Additional observations from a re-analysis of the deposited data

Results flagged for a closer look

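With the replicate number as a block, the Alas2 (1451675_a_at) ratio differed between tissues, with an adjusted p of 0.0328 in the moderated F test of limma after Benjamini-Hochberg adjustment. The ratios were 0.15 in duodenum, 0.94 in bone marrow and 2.07 to 2.31 in spleen, liver and brain. Without the block the adjusted p was 0.523 in limma.

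Alad and Fech each had a probe set whose arrays moved in opposite directions in a pair of tissues. For Alad (1424877_a_at), both IRP2 arrays lay above both controls in duodenum, with a log2 ratio of 0.39, and below both in liver, with -0.22. For Fech (1449181_at), they lay above in spleen, with 0.23, and below in liver, with -0.11. Of all tested probe sets, 14.4% lay above in duodenum, 15.6% above in spleen and 20.7% below in liver. The difference between the named tissues was not tested. The F test over all 5 tissues gave both probe sets an adjusted p of 1.0 in limma.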

How the results depend on the processing

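The alternatives were the replicate block, quantile normalization of the 20 arrays together, centring each array on its median, no filter on dim probe sets, array weights, and leaving out each array in turn. The 7 differences between Alas2 and the other enzymes were recomputed with quantile normalization, with the mean of each gene's probe sets, within replicate pairs (the block), without bone marrow and without each array. All kept their direction and their call, between 1.44 and 1.79, with adjusted exact permutation p-values up to 0.00781. The Alas2 mean ratio stayed between 1.47 and 1.58, called each time, and Alas2 remained the 1 heme synthesis probe set called. With the replicate block the bone marrow ratio of 0.94 (adjusted p = 0.0489 in limma) and the tissue difference (adjusted p = 0.0328 in limma) were called. With array weights the brain ratio of 2.31 was not (adjusted p = 0.386 in limma), and the cause was not tested. The block changed no other call among these results. Without 1 array, the Alas2 ratio ran from -0.05 to 0.35 in duodenum, from 1.89 to 2.38 in liver, from 1.95 to 2.19 in spleen, from 0.66 to 1.21 in bone marrow and from 2.09 to 2.54 in brain. Near 0, signs turned: Uros ran from -0.11 to 0.01, Urod from -0.13 to 0.07 and Cpox from -0.16 to 0.10 without 1 array, and quantile normalization gave 0.00 for Urod and 0.02 for Cpox. It also kept the tissue order of the control levels in only 3 of 8 genes, the cause of which was not tested. Alas2 has a single probe set, so averaging its probe sets changes nothing. The 2 arrays per group and the unstated origin of the replicates limit all of these values.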
